A study of Mus musculus with 12 samples.

Results

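The comparison asked whether fibroblasts without GADD34 answered arsenite differently from wildtype (WT) fibroblasts, with each culture set against the untreated culture of its own genotype and replicate. All 12 arrays of the series enter it, as 6 paired differences: the log2 signal with arsenite minus that without, within 1 replicate number, 3 for the knockout (KO) and 3 for WT. The mean of the 3 KO differences minus the mean of the 3 WT differences is called the difference of responses below. A positive value means a larger rise or a smaller fall in KO cells, and a negative value the opposite. The cells were mouse embryonic fibroblasts (MEFs), taken from embryos labelled 12.5-14.5do and immortalised by SV40 large T antigen, which binds p53 and retinoblastoma proteins and which all 4 groups share. The strain label, B6.129P2-Ppp1r15A tm1.1.Ajf/Mmnc combined with C57Bl/6, is the same for WT and for homozygous KO cells. Treated cells received 0.1 mM sodium arsenite for 2 h, and the medium of every group held beta-mercaptoethanol, a thiol. The sources used here do not say how many immortalised lines stood behind each genotype. With 1 line a genotype, genotype and line cannot be told apart, and p-values then measure the spread between replicate experiments.

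GADD34, encoded by Ppp1r15a, is the stress-induced subunit that directs protein phosphatase 1 to phosphorylated eIF2-alpha. Arsenite, which binds thiol groups, activates an eIF2-alpha kinase, and phosphorylated eIF2-alpha lowers protein synthesis while mRNAs such as that of ATF4 continue to be translated. GADD34 closes this loop by removing the phosphate. Arsenite also switches on immediate early genes through MAP kinases, and heat shock genes through HSF1.

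The arrays measured 20753 genes, each through its brightest probe set with a single symbol. Array medians lay between 5.92 and 5.96 log2 units. The 12 fibroblast markers were all above the floor of 5.35, the 40th percentile of all array values, and their mean per array was 9.83 to 11.32. A difference of responses with an untreated group mean under this floor has no exact size. The means of marker lists for macrophage, epithelial, endothelial, neural, muscle and lymphoid cells were 5.23 to 6.62. A group mean at or above the floor was reached by 5 of 10 macrophage, 7 of 10 epithelial and 4 of 9 endothelial markers. It was also reached by 7 of 10 neural, 7 of 10 muscle and 6 of 8 lymphoid markers. The 3 control probe sets for 18S ribosomal RNA moved with the comparison. Their mean was 13.87, 13.65 and 12.89 in untreated WT cells and 13.61, 13.51 and 13.59 with arsenite. In KO cells it was 13.81, 13.38 and 13.64 untreated and 12.99, 12.72 and 11.58 with arsenite. The paired differences were -0.25, -0.14 and 0.70 in WT and -0.82, -0.66 and -2.07 in KO cells, so they did not overlap, and KO replicate 3 stood lowest. RNA integrity, read as the 3' minus the 5' signal, gave a difference of responses of 0.02 for Actb and 0.07 for Gapdh. The part of the 18S shift in the results that follow was not tested.

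Arsenite responses differed between the genotypes for 107 of 20753 genes (0.516%) at a limma adjusted p under 0.05. The difference was positive for 32 genes (0.154%) and negative for 75 (0.361%). The paired differences of all 107 genes did not overlap between genotypes, a property that 10% of all genes had with KO above WT and 8.92% with KO below. Before adjustment 2724 genes had p under 0.05, 1294 of them positive and 1430 negative. The median difference of responses over all genes was 0.03. In the same fit 1675 genes (8.07%) responded to arsenite in WT cells, 858 upward (4.13%) and 817 downward (3.94%). In KO cells 4296 genes (20.7%) responded, 1806 upward (8.7%) and 2490 downward (12%). The count of 107 rested on the paired design and on single libraries. With all 12 arrays in 1 fit, 12 genes passed with the replicate number as a block and 7 without it. Leaving out both differences of replicate 1 left 0 genes by limma (1712 with unadjusted p under 0.05), leaving out those of replicate 2 left 12, and leaving out those of replicate 3 left 98. Without the WT difference of replicate 1, 2 or 3 the counts were 1, 0 (2210 unadjusted) and 7. Without the KO difference of replicate 1, 2 or 3 they were 5, 27 and 364, the last being the replicate with the lowest 18S signal.

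Of the 52 genes named below that passed, 12 passed in the fit with the replicate block and 7 in that with no replicate block. Those that kept the call with the block on 12 arrays were Ppp1r15a, Dusp2, Hspa1b, Chaserr, Glce, Maff, Dusp1, C130071C03Rik, Psd3, Slc2a1, Egr4 and Aff4. For the other 40 the limma adjusted p then ran from 0.0539 to 0.557, and it was highest for Cxadr, Il33, Pde5a, Pmaip1 and Cnn1. When the replicate number was instead a block on the differences, which leaves 2 residual degrees of freedom, Bcl2l11 lost its call (limma adjusted p = 0.0506). In that fit Hspa1a, Dnaja4, Egr2, Egr3, Zfp36, Dusp6, Slc38a2, Fhl2 and Dcp2 passed, 9 of the 33 genes named by the rule that otherwise did not. In the 9 fits that left out a replicate or a single difference, Sgk1 passed in 7, Dusp2 in 6 and Ppp1r15a in 5, and each of the other 49 in 1 to 4.

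**Figure D1:**
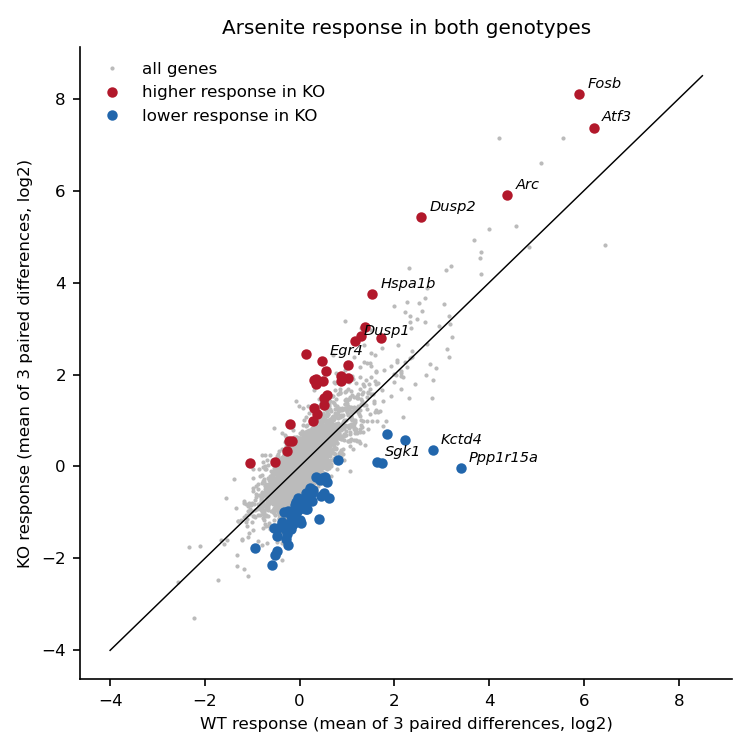
Arsenite response of each gene in WT cells (x axis) and KO cells (y axis), each the mean of 3 paired differences in log2 units, with the line of equal response. The 32 genes with a higher response in KO (red) lie above the line and the 75 with a lower response (blue) below it, Ppp1r15a farthest at -3.43.

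The genes fell into patterns according to which genotype responded. Among the 32 with a higher response in KO cells, 18 rose in both genotypes, 12 rose in KO cells and did not pass in WT, and 2 fell in WT cells and did not pass in KO. Their median response was 0.52 in WT and 1.89 in KO cells, and the difference of responses ran from 0.60 to 2.86 with a median of 1.14. Among the 75 with a lower response, 54 fell in KO cells and did not pass in WT. A further 7 rose in WT cells and did not pass in KO, 6 rose in WT and fell in KO cells, 6 fell in both and 2 rose in both. The median response of the 75 was 0.00 in WT and -0.88 in KO cells, and the difference of responses ran from -3.43 to -0.58 with a median of -0.90. A difference of at least 1 in size was reached by 20 and 29 genes. For 5 of the 107 no group mean reached the floor.

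Ppp1r15a, the targeted gene, was first among the lower responses. Its log2 signal was 8.45, 8.57 and 8.88 in untreated WT cells and 12.24, 12.25 and 11.60 with arsenite. In KO cells it was 6.42, 6.34 and 6.20 without and 6.27, 6.71 and 5.88 with arsenite, so every KO array lay below every WT array. Its response was 3.40 ± 0.20 in WT and -0.03 ± 0.20 in KO cells, a difference of -3.43 ± 0.29 (SE, limma adjusted p = 0.00928). The sources used here do not say whether the deletion covers its single probe set, so this signal checks the genotype only if it does. The other 18 measured genes of eIF2 control, kinases and phosphatase subunits among them, did not pass, and the list's median was -0.02. The largest of them in size was Eif2ak2, the kinase PKR, at -0.57 ± 0.12 (limma adjusted p = 0.0908). The promoter of Ppp1r15a is shown because it holds a cAMP response element, the site bound by ATF and CREB factors, as do those of Dusp1 and Maff, whose responses went the other way. The sequences are RefSeq's for GRCm38.p6, 250 bases before to 50 after the start site, at chr7:45526219-45526518 on the minus strand, chr17:26508423-26508722 on the minus strand and chr15:79347270-79347569 on the plus strand. Capitals mark the element TGACGTCA, which begins at -12, -143 and -29 from the start site.
Ppp1r15a: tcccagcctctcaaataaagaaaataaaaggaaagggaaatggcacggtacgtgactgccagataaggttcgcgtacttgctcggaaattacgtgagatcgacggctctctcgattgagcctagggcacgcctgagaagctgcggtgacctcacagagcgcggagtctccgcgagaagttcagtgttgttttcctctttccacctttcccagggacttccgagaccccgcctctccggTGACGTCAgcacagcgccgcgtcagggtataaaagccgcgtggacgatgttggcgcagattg
Dusp1: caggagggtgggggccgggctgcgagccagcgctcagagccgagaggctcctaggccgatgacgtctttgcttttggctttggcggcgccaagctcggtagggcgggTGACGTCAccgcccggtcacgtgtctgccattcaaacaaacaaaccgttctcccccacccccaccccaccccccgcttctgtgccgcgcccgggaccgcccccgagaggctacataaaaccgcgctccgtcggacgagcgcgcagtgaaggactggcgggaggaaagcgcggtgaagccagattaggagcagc
Maff: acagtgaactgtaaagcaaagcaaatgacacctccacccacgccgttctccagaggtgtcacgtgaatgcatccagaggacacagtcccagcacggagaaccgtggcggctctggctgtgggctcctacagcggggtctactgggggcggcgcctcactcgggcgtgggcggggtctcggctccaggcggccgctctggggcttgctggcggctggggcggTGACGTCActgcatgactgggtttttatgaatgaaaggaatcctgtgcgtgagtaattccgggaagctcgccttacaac
Read on both strands, as were the other motifs, it stood in 1.8% of 32851 promoters and 2.0% of all genes. It was held by the promoters of 2 of the 23 higher genes that matched the table and of 2 of 55 lower genes, the other being Peg3.

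Of 30 immediate early genes, which cells transcribe within minutes of a stimulus, 5 passed with a higher response in KO cells and 0 with a lower one. They were Fosb, Egr4, Arc, Atf3 and Maff. Their median difference of responses was 0.98, against 0.03 over all genes, and 25 of the 30 lay above 0, as did 11926 of all 20753. The median response of the list was 2.65 in WT and 3.46 in KO cells. The KO differences lay wholly above the WT differences in 14 of the 30 and wholly below in 0. Over all genes these shares were 10% and 8.92%.

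Fosb, an AP-1 subunit, went from 4.80, 4.24 and 4.69 to 10.90, 10.00 and 10.53 in WT cells, and from 4.10, 4.72 and 3.98 to 12.71, 12.08 and 12.32 in KO cells. Untreated arrays overlapped, and with arsenite every KO array was above every WT array. The response was 5.90 in WT and 8.10 in KO cells, with a difference of 2.20 ± 0.28 (limma adjusted p = 0.0323, or 0.0558 when blocked on replicate). Its untreated signal lay under the floor in both genotypes. Egr4, a zinc finger factor of the early growth response family, gave 6.67, 6.84 and 6.80 in untreated and 7.30, 7.09 and 7.32 in treated WT cells. Its KO arrays gave 6.85, 6.81 and 6.54, then 9.49, 9.05 and 8.55. The response was thus 0.47 in WT, which did not pass (limma adjusted p = 0.0543), and 2.30 in KO cells, a difference of 1.83 ± 0.17 (limma adjusted p = 0.0109). Arc, best known from neurons, rose by 4.38 in WT and 5.90 in KO cells, a difference of 1.53 ± 0.20 (limma adjusted p = 0.0323). Atf3, a stress-induced factor of the ATF family, rose by 6.21 and 7.37, a difference of 1.16 ± 0.18 (limma adjusted p = 0.0436). Maff is described with the small Maf factors. Relatives of Egr4 did not pass. Egr2 gave 1.59 ± 0.43 (limma adjusted p = 0.148, or 0.0311 with the block on the differences). Egr3 gave a negative value of -1.62 ± 0.77 (limma adjusted p = 0.422, or 0.0362 with that block). Its paired differences were 5.67, 5.81 and 7.85 in WT and 4.50, 3.51 and 6.47 in KO cells. The untreated WT mean of Egr3 was 5.08, under the floor, so its difference has no exact size. Every KO array of Egr3 lay above every WT array of the same treatment. The other probe set of Egr3 gave 0.16.

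**Figure D2:**
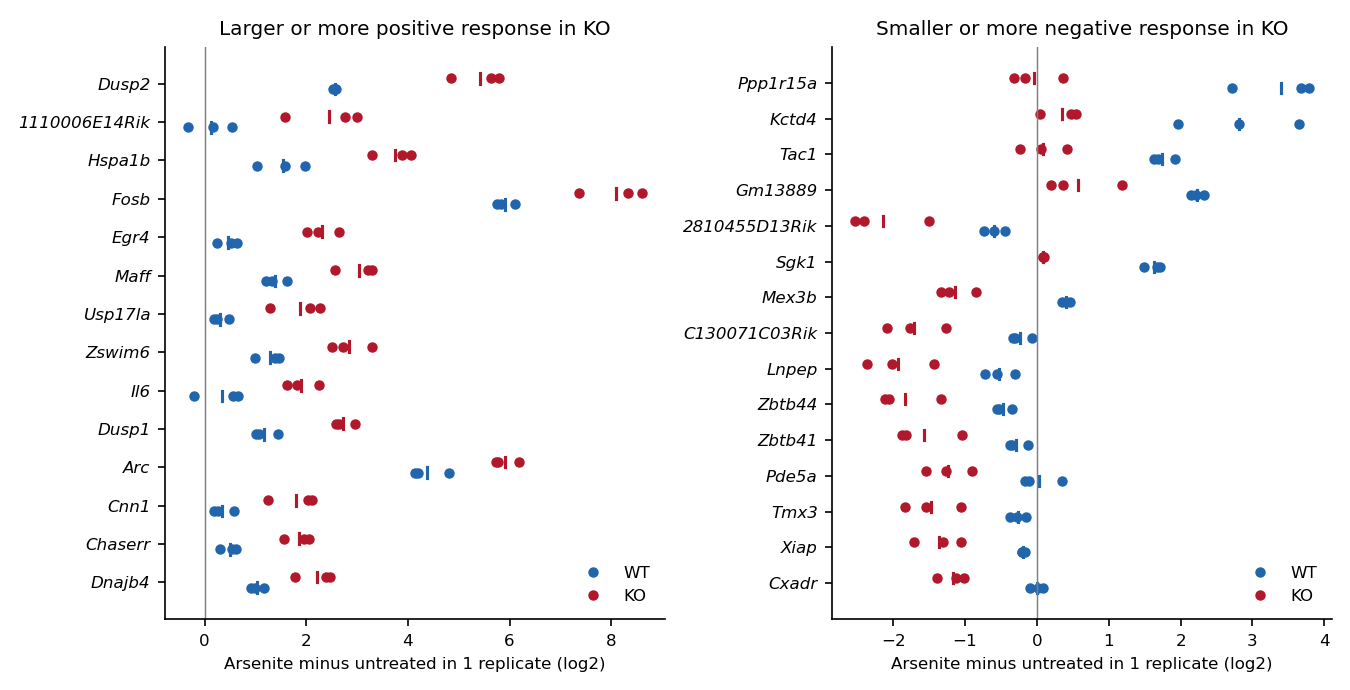
Paired differences (log2 signal with arsenite minus without) of the named genes with the largest positive and the largest negative difference of responses, 3 points for WT (blue) and 3 for KO (red), with a tick at each mean. In every gene shown the points of the genotypes do not overlap, which was a condition of naming. Those of Sgk1 in KO cells lie at 0.08 to 0.10.

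Phosphatases that switch off MAP kinases were among the strongest of the higher responses. Of 16 feedback genes of this pathway 2 passed upward and 0 downward, with a median of 0.19. Dusp2, a nuclear MAP kinase phosphatase, stood at 6.11, 6.20 and 6.19 in untreated WT cells and 8.70, 8.77 and 8.72 with arsenite. In KO cells it stood at 7.22, 7.82 and 6.66, then 13.01, 12.66 and 12.30. The KO arrays were above WT before treatment and farther above after it. The response was 2.56 ± 0.16 in WT and 5.42 ± 0.16 in KO cells, and the difference of 2.86 ± 0.22 (limma adjusted p = 0.00778) was the largest positive one that passed. Dusp1, which acts on p38 and JNK, behaved otherwise in its levels. It gave 12.51, 12.26 and 12.33 in untreated WT cells and 13.51, 13.33 and 13.78 with arsenite, against 10.86, 11.28 and 11.16, then 13.81, 13.91 and 13.75 in KO cells. The KO arrays began below WT and overlapped with it after arsenite. Its difference of responses was 1.55 ± 0.15 (limma adjusted p = 0.0109). Dusp6, which acts on ERK, gave 0.93 ± 0.52 (limma adjusted p = 0.501, or 0.0338 with the block on the differences) and Dusp8 0.76 ± 0.25 (limma adjusted p = 0.229).

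Heat shock genes gave the same sign in nearly all members. Of 27 measured, 26 lay above 0, as did 11926 of all 20753 genes. The list's median was 0.35, and 2 passed upward and 0 downward. Hspa1b, the inducible chaperone HSP70, gave 12.97, 12.66 and 13.06 in untreated WT cells and 14.56, 14.63 and 14.10 with arsenite. Its KO arrays gave 10.44, 10.66 and 10.69, then 14.50, 14.54 and 13.98. The untreated KO arrays were below WT and the treated arrays overlapped. The response was 1.54 ± 0.18 in WT and 3.74 ± 0.18 in KO cells, a difference of 2.21 ± 0.26 (limma adjusted p = 0.024), and its other 2 probe sets gave 2.36 and 2.56. Hspa1a, a nearly identical neighbour whose signal may be shared with Hspa1b, gave 2.94 ± 0.54 and did not pass (limma adjusted p = 0.0654), but did with the block on the differences (limma adjusted p = 0.00343). Dnajb4, a J-domain partner of HSP70, rose by 1.02 in WT and 2.21 in KO cells, a difference of 1.19 ± 0.18 (limma adjusted p = 0.0442). One of its 3 probe sets, with a mean over all arrays of 5.19, under the floor, gave 0.38. Dnaja4, of the same family, gave 2.00 ± 0.96 with its 3 KO differences between 1.98 and 5.75 (limma adjusted p = 0.422, or 0.0413 with that block). The RefSeq promoter of Hspa1b at chr17:34959189-34959488 (GRCm38.p6, minus strand) is shown for its heat shock element, GAANNTTC in capitals, which begins at -104 from the start site.
Hspa1b: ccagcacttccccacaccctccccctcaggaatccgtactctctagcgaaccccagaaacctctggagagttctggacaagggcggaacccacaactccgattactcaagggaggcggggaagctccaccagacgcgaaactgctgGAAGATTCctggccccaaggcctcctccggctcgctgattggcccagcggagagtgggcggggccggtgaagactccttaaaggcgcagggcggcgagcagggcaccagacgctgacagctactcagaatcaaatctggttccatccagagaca
That element stood in 7.9% of all promoters and 9.0% of all genes, in 1 of 23 matched higher genes and in 6 of 55 lower genes, Sgk1 among them.

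**Figure D3:**
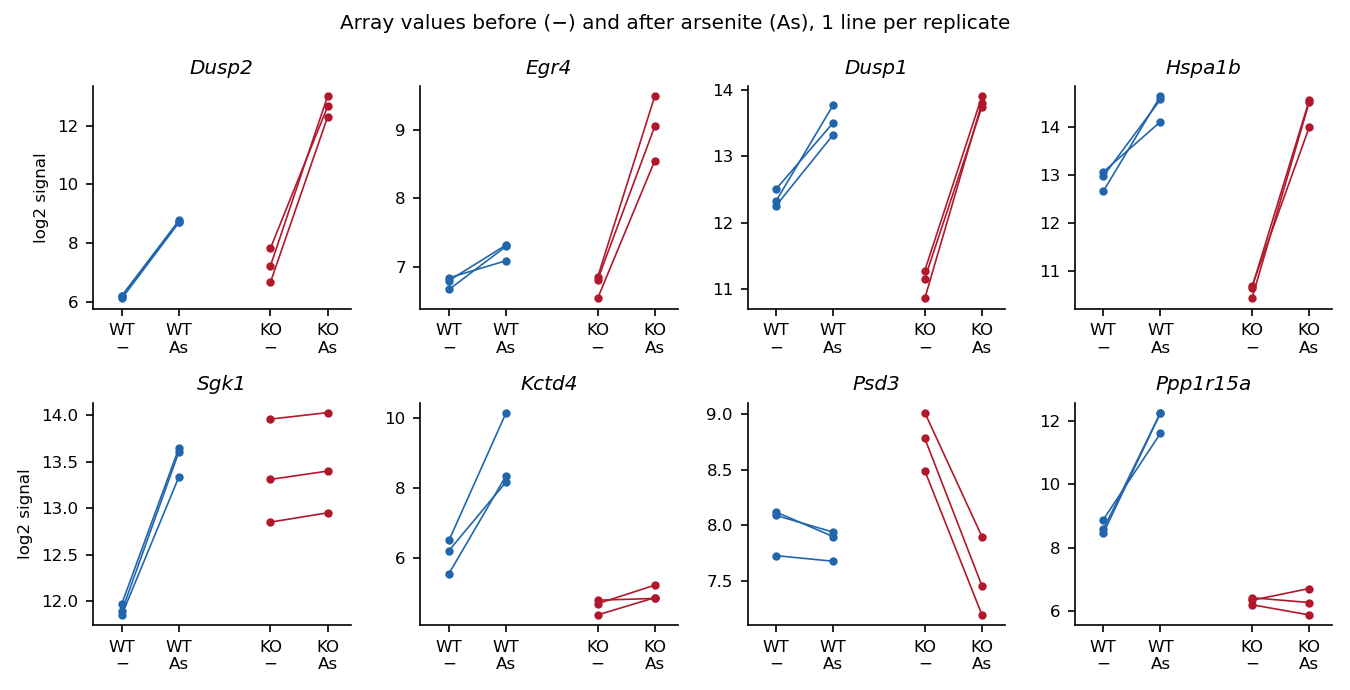
Log2 signal of 8 genes on each array without (−) and with (As) arsenite, 1 line per replicate, WT in blue and KO in red, with a separate y axis for each gene. Dusp1 and Hspa1b begin lower in KO cells and end overlapping with WT, Dusp2 and Egr4 end above it, and Sgk1 and Ppp1r15a have mean KO responses of 0.09 and -0.03.

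Small Maf factors, partners of NRF2 on DNA, and Bach repressors had 1 of 10 members past the threshold and a median of 0.10. That member, Maff, gave 10.66, 10.45 and 10.27 in untreated WT cells and 11.86, 11.78 and 11.89 with arsenite, and 8.72, 9.23 and 8.58, then 11.94, 11.79 and 11.88 in KO cells. It too started lower in KO cells, ended at overlapping levels and had a difference of 1.64 ± 0.20 (limma adjusted p = 0.0284). The targets of NRF2 itself had 0 of 27 past and a median of 0.06, with Abcc1, a pump for glutathione conjugates, at 0.47 ± 0.11 (limma adjusted p = 0.122). Among 8 metal response genes 0 passed and the median was -0.09, with the zinc importer Slc39a10 at -0.36 ± 0.11 (limma adjusted p = 0.178).

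NF-kB subunits and cytokines had 2 of 32 members past the threshold upward, 0 downward, and a median of 0.28. Of the 32, 24 lay above 0, as did 11926 of all 20753 genes. The macrophage marker list, whose mean per array was 5.23 to 5.58, had a median of 0.22 with 8 of 10 above 0 and 0 past. The other marker lists had medians of 0.03 to 0.16 and 0 past, and their part in the result was not tested. Relb, a subunit of the non-canonical arm of this pathway, rose by 0.87, 0.88 and 0.87 in WT and by 1.86, 1.93 and 1.81 in KO cells. The difference was 1.00 ± 0.09 (limma adjusted p = 0.0109, or 0.107 when 12 arrays were blocked on replicate). Map3k14, the kinase at the head of that arm and named after its values were seen, rose by 0.57 in WT and 1.55 in KO cells, a difference of 0.98 ± 0.09 (limma adjusted p = 0.0109), which its other probe set gave at 0.23. Il6, an inflammatory cytokine, lay at 3.69 to 4.67 on the 6 WT arrays, under the floor. In KO cells it went from 5.80, 6.48 and 5.69 to 7.62, 8.10 and 7.95, with a difference of 1.56 ± 0.24 (limma adjusted p = 0.0442). Ptgs2, the inducible cyclooxygenase, gave 1.71 ± 0.42 (limma adjusted p = 0.123) and Rel 1.31 ± 0.43 (limma adjusted p = 0.229).

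The targets of ATF4 and CHOP, which lie downstream of eIF2-alpha phosphorylation, divided evenly in sign. Of 24 measured, 1 passed upward (Atf3) and 1 downward (Ppp1r15a itself), 12 lay above 0 and the median was -0.01. Their median response was 1.16 in WT and 0.87 in KO cells. Chac1, which degrades glutathione, rose by 3.20 in WT and 4.36 in KO cells, and the difference of 1.17 ± 0.34 did not pass (limma adjusted p = 0.177). Gdf15, a secreted stress cytokine, gave -0.77 ± 0.24 (limma adjusted p = 0.21). Amino acid transport and synthesis genes had 0 of 26 past and a median of -0.09. Slc38a2, an amino acid transporter, rose by 0.93 in WT cells and had a response of 0.15 ± 0.12 in KO cells (limma adjusted p = 0.404). The difference was -0.78 ± 0.17 (limma adjusted p = 0.0843, or 0.0498 with the block on the differences), and its other probe sets gave -0.27 and -0.29.

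Growth arrest and cell death genes included members of both signs. Pmaip1, the BH3-only protein NOXA, rose by 1.72 in WT and 2.80 in KO cells, a difference of 1.08 ± 0.15 (limma adjusted p = 0.0402, or 0.259 when 12 arrays were blocked on replicate). It was the 1 of 23 p53 targets past the threshold, and the list's median was -0.11. Bcl2l11, the BH3-only protein BIM, had a response of 0.45 in WT (limma adjusted p = 0.0714) and fell by 0.64 in KO cells. Its difference was -1.09 ± 0.18 (limma adjusted p = 0.0498), and 1 of its other 4 probe sets had the opposite sign. In its list of GADD45 and apoptosis genes, 2 of 18 passed, 1 in each direction, and the median was 0.08. Gadd45a gave -1.30 ± 0.40 (limma adjusted p = 0.2) and Gadd45g 1.49 ± 0.43 (limma adjusted p = 0.169). Slc2a1, the glucose transporter GLUT1, was the 1 of 23 hypoxia and glycolysis genes that passed. It rose by 0.87 in WT and 1.97 in KO cells, a difference of 1.11 ± 0.13 (limma adjusted p = 0.024), and its other 2 probe sets gave 1.01 and 1.14.

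Contractile genes had 1 of 18 members past and a median of 0.18. Cnn1, the actin-binding protein calponin, was lower in KO cells at 7.84, 6.46 and 6.96 untreated, against 11.64, 11.33 and 11.19 in WT. With arsenite it reached 9.88, 7.70 and 9.08, still below the WT arrays at 11.89, 11.51 and 11.76, and its difference of responses was 1.47 ± 0.23 (limma adjusted p = 0.0442, or 0.24 when 12 arrays were blocked on replicate). Zswim6, a zinc finger protein, gave 1.56 ± 0.21 (limma adjusted p = 0.0355) and 1.31 by its other probe set. The long noncoding RNA Chaserr, which lies beside Chd2 and limits its expression, rose by 0.49 in WT and 1.86 in KO cells, a difference of 1.36 ± 0.15 (limma adjusted p = 0.0176). Usp17la, of a multicopy deubiquitinase family whose probe sets may be shared, gave 1.58 ± 0.24 (limma adjusted p = 0.0436), and the transcript 1110006E14Rik gave 2.32 ± 0.36 (limma adjusted p = 0.0442). Both lay under the floor on all WT arrays. Of genes named after their values were seen, Map2k3, a kinase that activates p38, gave 0.71 ± 0.11 (limma adjusted p = 0.0442). Pvt1, a long noncoding RNA beside Myc, gave 0.91 ± 0.14 (limma adjusted p = 0.0436).

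**Figure D4:**
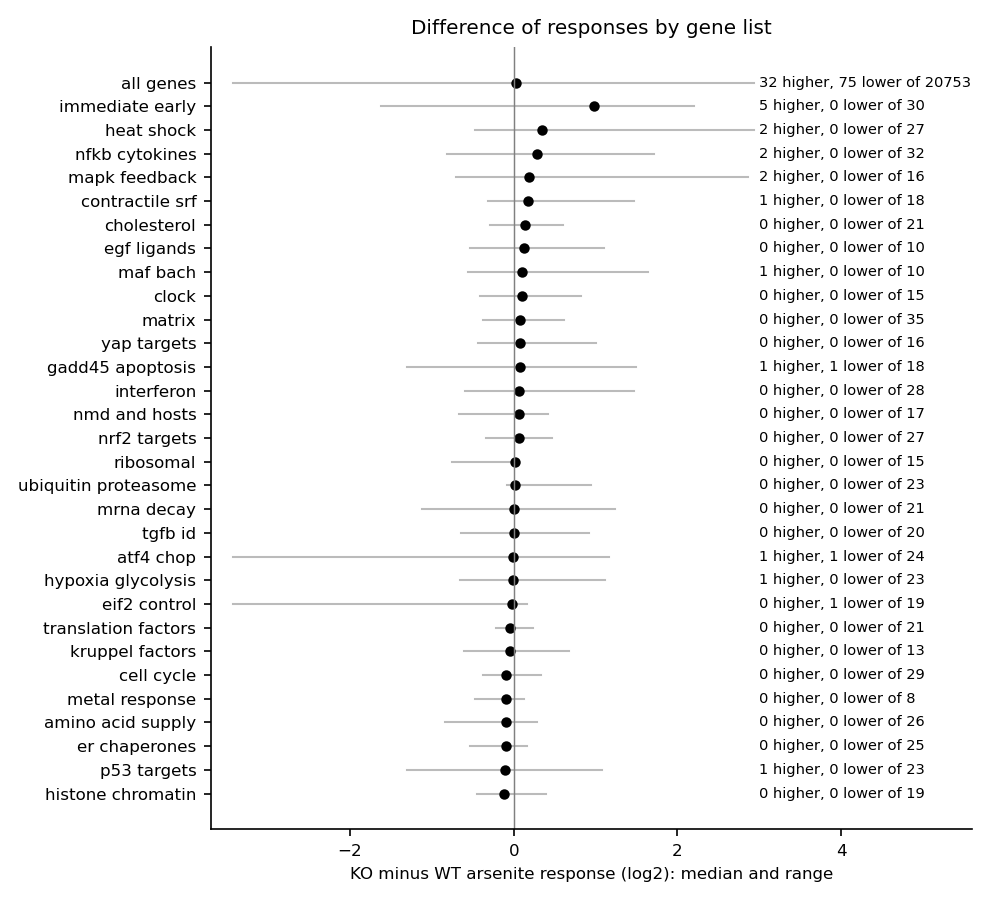
Median (point) and range (line) of the difference of responses, in log2 units, for all genes and for each pathway list, with the counts that passed in each direction. The immediate early list has the highest median at 0.98, followed by the heat shock list at 0.35 and the NF-kB list at 0.28, and the other medians shown lie between -0.12 and 0.19.

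Another 7 of the lower genes, with Ppp1r15a, Sgk1, Kctd4 and Tac1 among them, rose in WT cells and had a KO change that did not pass. Sgk1, the serum and glucocorticoid regulated kinase, had the smallest adjusted p of all genes. Its signal went from 11.85, 11.89 and 11.97 to 13.34, 13.61 and 13.65 in WT cells. In KO cells it was 12.85, 13.96 and 13.31 before and 12.95, 14.03 and 13.40 after arsenite. Untreated KO arrays were thus all above untreated WT arrays, and treated arrays overlapped. The response was 1.63 ± 0.07 in WT and 0.09 ± 0.07 in KO cells (limma adjusted p = 0.429 for the latter). The difference was -1.54 ± 0.10 (limma adjusted p = 0.00478, or 0.0835 when 12 arrays were blocked on replicate).

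Kctd4, a BTB domain protein, went from 6.22, 6.51 and 5.56 to 8.18, 10.16 and 8.36 in WT cells and lay at 4.38 to 5.23 on all KO arrays, under the floor. Its difference of -2.45 ± 0.36 (limma adjusted p = 0.0421) was -0.76 by its other probe set (mean over all arrays 5.15, under the floor). Tac1, which encodes the precursor of substance P, rose from 4.50, 4.26 and 4.16 to 6.42, 5.94 and 5.79 in WT cells, while the KO arrays lay at 3.68 to 4.17. Its difference was -1.66 ± 0.17 (limma adjusted p = 0.0123), and its other probe set gave 0.03. By mean over all arrays both sets lay under the floor, at 4.53 and 3.70. Gm13889 and Irx3 were the 2 that rose in both genotypes. Gm13889 rose by 2.23 in WT and 0.58 in KO cells, a difference of -1.65 ± 0.23 (limma adjusted p = 0.0385), with 0.13 by its other probe set. Irx3, a homeobox factor named after its values were seen, rose by 1.85 in WT and 0.71 in KO cells, from levels of 4.74 to 5.53 in WT and 9.82 to 10.96 in KO cells. Its difference was -1.14 ± 0.19 (limma adjusted p = 0.0484), and with an untreated WT mean of 5.06, under the floor, it has no exact size.

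The largest class was made of transcripts that fell in KO cells while the WT change did not pass. Zbtb41, a zinc finger protein, lay at 10.21, 10.25 and 10.12 in untreated WT cells and 9.83, 9.90 and 9.99 with arsenite. In KO cells it began at overlapping levels, 10.27, 10.25 and 10.17, and ended at 8.45, 8.37 and 9.13, below all WT arrays. Its difference was -1.29 ± 0.21 (limma adjusted p = 0.0479). Its relative Zbtb44 gave -1.36 ± 0.20 (limma adjusted p = 0.0408). The other 2 probe sets of Zbtb44 gave -0.66 (mean over all arrays 8.32) and 0.11 (3.36, under the floor). Xiap, an inhibitor of caspases, fell by 1.36 in KO cells against a WT response of -0.19, a difference of -1.17 ± 0.16 (limma adjusted p = 0.0355), with other probe sets from -0.96 to 0.45. Lnpep, an aminopeptidase, gave -1.41 ± 0.23 (limma adjusted p = 0.0448) and Tmx3, a thioredoxin-like protein of the endoplasmic reticulum, -1.21 ± 0.19 (limma adjusted p = 0.0442). Other probe sets gave -0.42 and -0.39 for Lnpep and -1.48 to -1.03 for Tmx3. The cGMP phosphodiesterase Pde5a gave -1.26 ± 0.19 (limma adjusted p = 0.0436, or 0.358 when 12 arrays were blocked on replicate), and the transcripts 2810455D13Rik and C130071C03Rik gave -1.55 ± 0.25 and -1.47 ± 0.19 (limma adjusted p = 0.0448 and 0.0327). C130071C03Rik had means of 4.07 and 3.83 in untreated and treated WT cells and 5.17 in treated KO cells, all under the floor, so its difference has no exact size.

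In some genes with a lower response the KO level had started above WT. Cxadr, a cell adhesion protein that serves as receptor for coxsackieviruses, lay at 9.98, 9.66 and 11.03 in untreated KO cells and 8.86, 8.27 and 10.02 with arsenite, against 6.85 to 7.63 on the 6 WT arrays. Its difference was -1.17 ± 0.13 (limma adjusted p = 0.0165, or 0.557 when 12 arrays were blocked on replicate). Mex3b, an RNA-binding protein, gave 7.53, 7.06 and 7.68 in untreated WT cells and 7.99, 7.47 and 8.03 with arsenite, and 9.17, 9.66 and 9.19, then 8.32, 8.44 and 7.85 in KO cells. It rose by 0.41 in WT (limma adjusted p = 0.0424) and fell by 1.13 in KO cells, a difference of -1.54 ± 0.14 (limma adjusted p = 0.0109). Il33, a cytokine of the interleukin 1 family named after its values were seen, gave -1.01 ± 0.13 (limma adjusted p = 0.0284, or 0.534 with that block), with all 6 WT arrays under the floor. Psd3, an exchange factor for ARF6, gave -1.10 ± 0.11 (limma adjusted p = 0.0109) and Glce, an epimerase of heparan sulfate synthesis, -0.86 ± 0.09 (limma adjusted p = 0.0181). Both were also named after their values were seen. Psd3 crossed from above WT to overlapping with it, and Glce was below WT before and after treatment.

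A further set of genes with a lower response is named here after the values were seen, with no list behind it and no test of them as a group. Pcm1 and Nin, both of the centrosome, gave -1.10 ± 0.17 and -1.12 ± 0.18 (limma adjusted p = 0.0442 and 0.0448). Apc, a scaffold of beta-catenin degradation, gave -0.90 ± 0.12 (limma adjusted p = 0.0323). Cenpf of the kinetochore gave -0.87 ± 0.12, the condensin subunit Smc2 -0.85 ± 0.11, and the cohesin proteins Stag2 and Pds5b -0.79 ± 0.12 and -0.85 ± 0.13 (limma adjusted p between 0.0323 and 0.0442). Arid2 of a SWI/SNF complex gave -0.79 ± 0.11, the histone methyltransferase Nsd1 -0.81 ± 0.13 and Aff4 of the super elongation complex -0.93 ± 0.11 (limma adjusted p between 0.0284 and 0.0442). Pum2, an RNA-binding repressor, gave -0.81 ± 0.12 (limma adjusted p = 0.0436). The WT response was -0.54 for Nsd1, which fell in both genotypes (limma adjusted p = 0.00992 in WT), -0.25 for Pcm1 and for Nin, and between -0.08 and 0.16 for the others.

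The lists of cell cycle genes (0 of 29 past, median -0.09), histone and chromatin genes (0 of 19, median -0.12) and mRNA decay genes (0 of 21, median 0.00) had no member past the threshold. Mki67, a proliferation marker, gave -0.37 ± 0.11 (limma adjusted p = 0.171), and Dcp2, which removes mRNA caps, -1.12 ± 0.21 (limma adjusted p = 0.0654, or 0.041 with the block on the differences). The other probe set of Dcp2 gave 0.07. Zfp36, which promotes decay of cytokine mRNAs, gave 1.24 ± 0.26 (limma adjusted p = 0.0825, or 0.0388 with that block). Endoplasmic reticulum chaperones (0 of 25, median -0.09), translation factors (0 of 21, median -0.04), ribosomal proteins (0 of 15 measured of 25 listed, median 0.01), interferon genes (0 of 28, median 0.07), matrix genes (0 of 35, median 0.08) and cholesterol genes (0 of 21, median 0.14) likewise had none.

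Levels before and after treatment showed how the differences came about in arithmetic terms. Untreated KO arrays lay wholly below WT for 17 of the 32 higher genes and wholly above for 4, against 17.5% and 16.2% of all genes. With arsenite they lay above for 16 and below for 3, against 18.1% and 15.4% of all genes. The most frequent course, in 11 genes, was from below WT to overlapping with it, and 9 went from overlapping to above. Of the 75 lower genes 30 were above and 17 below WT when untreated, and 11 were above and 48 below with arsenite. Here 25 went from overlapping to below, 17 were below throughout, 13 went from above to overlapping, 11 stayed above and 6 crossed from above to below. Since the untreated arrays enter both the level and the response, these counts are a description and not a second test.

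The genes with a lower response in KO cells had a longer median span in the genome than those with a higher one. The genomic span, from the start to the end of the RefSeq gene (GRCm38.p6), had a median of 54.0 kb in the 71 lower genes that matched and 11.7 kb in the 30 higher genes, against 20.6 kb over 18248 genes tested and 22.1 kb over those above the floor. Spans over 100 kb were held by 19 of the 71 lower genes (26.8%), 2 of the 30 higher genes (6.7%) and 12.6% of all. Spans under 10 kb were held by 13 of the 30 higher genes (43.3%), 13 of the 71 lower genes (18.3%) and 29.7% of all. Over the genes above the floor, the median difference of responses was 0.05 for spans under 5 kb, 0.02 for 20 to 50 kb, -0.03 for 100 to 200 kb and -0.01 for those over 200 kb. These shifts are small beside the interquartile range of -0.20 to 0.12 in the last group, and the median did not go on falling with the longest spans. No test was made of these spans, and genes are not independent replicates.

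**Figure D5:**
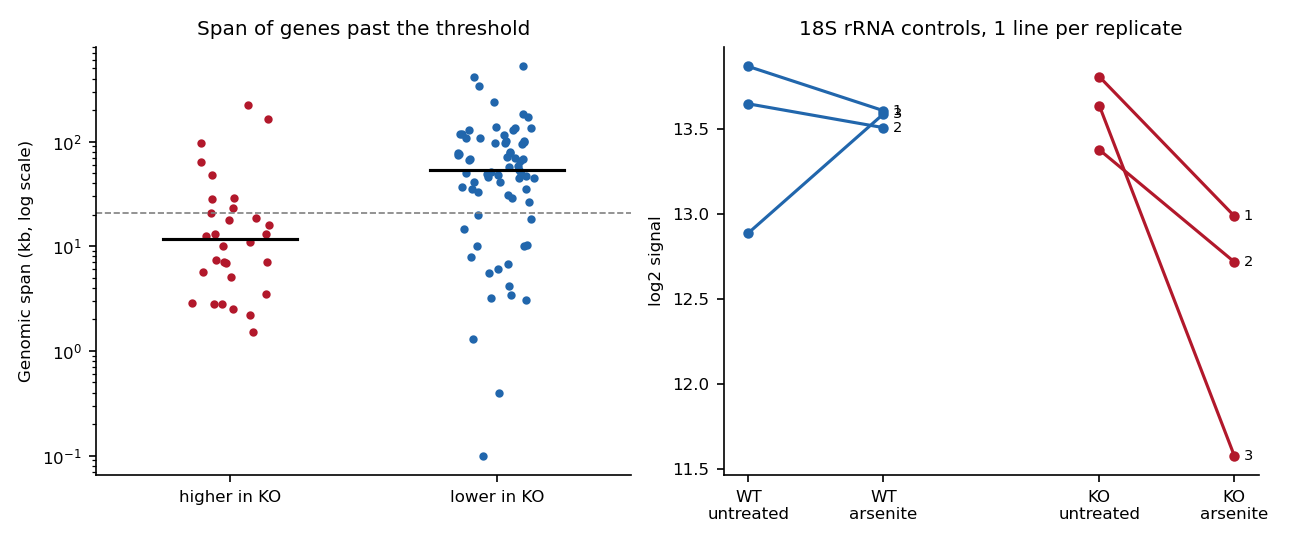
Left, genomic span in kb (log axis) of the genes past the threshold, 1 point a gene, with the median as a bar and the median of all genes tested as a dashed line. The bar of the lower genes stands at 54.0 kb and that of the higher genes at 11.7 kb. Right, mean log2 signal of 3 control probe sets for 18S rRNA on each array, 1 line per replicate, which falls by 0.82, 0.66 and 2.07 in KO cells.

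Probe sets of a gene did not always give 1 answer. Several probe sets measured 62 of the 75 lower genes. For 50 of the 62 at least 1 other set showed less than 50% of the change, and for 22 at least 1 had the opposite sign. Among the 32 higher genes 12 were measured so, with 7 and 3 in the same classes. The other 4 probe sets of Pcm1 gave -1.14 to -0.36 and those of Cenpf -0.97 to -0.28, while 1 of the other 4 of Smc2 gave 0.28. The other sets of Nsd1 gave -0.15 to 0.09, those of Aff4 -0.18 and -0.08 and those of Glce -0.24 and -0.07. That of Psd3 gave -0.06 and those of C130071C03Rik -0.21 to 0.07. The counts took no account of brightness. By mean over all arrays, the other sets of Psd3 (4.26) and C130071C03Rik (3.13 to 3.47) lay under the floor. So did the 0.28 set of Smc2 (4.92) and sets of Nsd1 (4.09 and 3.79), Aff4 (3.69) and Glce (4.42). Sets of Nsd1 at 6.99 (0.06), Aff4 at 7.28 (-0.18) and Glce at 5.74 (-0.24) lay above it. The part of dim sets in the counts and in the averages that follow was not tested. With all sets of a gene averaged, Nsd1 came to -0.20, Aff4 to -0.40, Glce and C130071C03Rik to -0.39 and Psd3 to -0.58, and 33 of the 52 named genes no longer passed.

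Other motifs were counted in the same promoters. The AP-1 site TGANTCA stood in 7.8% of all promoters and 9.0% of all genes, in 1 of 23 matched higher genes (4.3%) and in 4 of 55 lower genes (7.3%). The NF-kB site stood in 4.5% of all promoters and 5.1% of all genes, in 4 of the 23 higher genes (17.4%, Egr4, Fosb, Il6 and Maff) and in 5 lower genes (9.1%). The CArG box bound by SRF stood in 1.6% of all promoters, 1.8% of all genes and in 0 of either group. No test was made of these shares. A match is only a run of letters in this window.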

How the data were processed

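Labelled RNA of 12 Affymetrix Mouse430_2 arrays was analysed, 3 for each of 4 groups. The deposited values are log2 signals after RMA, per the submitters' processing notes, which give no version. The table of 45101 probe sets also holds the authors' log2 differences and the authors' p-values. The authors' deposited difference of responses equalled the one computed here within 1.1e-08, and their p-values were not used. Groups were read from array codes, whose means equal the named mean columns of the authors within 1e-06. A shorter deposited table of 26382 probe sets was not used for the results, since 10 of its 12 columns hold another array than their label says. Of the probe sets, 64 controls, 5654 without a symbol and 1253 with several were left out of the fit, which left 38130 (35046 matched to RefSeq by Entrez identifier) and 20753 genes by brightest probe set. No per-array column was left unused.

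Paired differences were fitted with limma 3.58.1 in R 4.3.3 (4 residual degrees of freedom, 4.5 prior), as moderated two-sided tests with Benjamini-Hochberg adjustment over all genes. The design text names 3 replicate experiments, each with all groups, so the replicate number pairs the arrays. Deviations from group means correlated at 0.231 to 0.738 for the 18 pairs with the same number and at -0.575 to -0.0106 for the 36 with different numbers. The deviations of the 3 arrays of a group sum to 0. Positive values for the same number thus push those for different numbers below 0, and the ranges are not independent. The deviations of the KO and WT differences of 1 number correlated at 0.12 to 0.197. With 3 differences against 3, an exact permutation test of a single gene cannot go below p = 0.1. The number of arrays limits the precision. The fit was tested on simulated data.

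Genes were named from this rule: Ppp1r15a, the 15 largest differences that passed in each direction, and members of each list. The largest also needed a group mean above the floor and paired differences that did not overlap between genotypes. List by list, at most 4 that passed and the 2 largest in size that did not were named. Some genes that this rule names are not reported here. Others are marked as named after their values were seen. The members and the lists were chosen with earlier results of these data known. A further column of the table, true for some probe sets, is unexplained and was not used. The alternatives were the pairing, left-out replicates, normalisation, the filter on dim genes, the choice of probe sets, the variance model, the threshold and the labels of the shorter table.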

Additional observations from a re-analysis of the deposited data

Results flagged for a closer look

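Each of the 52 named genes past the threshold differs between WT and KO cells in its arsenite response, by the test of that difference itself. The values are differences of responses in log2 units, KO minus WT, from limma with an adjusted p under 0.05. In all of them, as in all 107 genes that passed, the 3 KO and the 3 WT paired differences did not overlap. For the 15 largest in each direction this was a condition of naming, so it is no added support. The larger positive values were Dusp2 at 2.86, 1110006E14Rik at 2.32, Hspa1b at 2.21, Fosb at 2.20, Egr4 at 1.83, Maff at 1.64, Usp17la at 1.58 and Il6 at 1.56. Next in size were Zswim6 at 1.56, Dusp1 at 1.55, Arc at 1.53, Cnn1 at 1.47, Chaserr at 1.36, Dnajb4 at 1.19 and Atf3 at 1.16. Smaller positive values were Slc2a1 at 1.11, Pmaip1 at 1.08, Relb at 1.00, Map3k14 at 0.98, Pvt1 at 0.91 and Map2k3 at 0.71.

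The larger negative values were Ppp1r15a at -3.43, Kctd4 at -2.45, Tac1 at -1.66, Gm13889 at -1.65, 2810455D13Rik at -1.55, Mex3b at -1.54, Sgk1 at -1.54 and C130071C03Rik at -1.47. Next in size were Lnpep at -1.41, Zbtb44 at -1.36, Zbtb41 at -1.29, Pde5a at -1.26, Tmx3 at -1.21, Cxadr at -1.17, Xiap at -1.17 and Irx3 at -1.14. Below these in size came Nin at -1.12, Pcm1 at -1.10, Psd3 at -1.10, Bcl2l11 at -1.09, Il33 at -1.01, Aff4 at -0.93, Apc at -0.90 and Cenpf at -0.87. The smallest were Glce at -0.86, Smc2 at -0.85, Pds5b at -0.85, Nsd1 at -0.81, Pum2 at -0.81, Stag2 at -0.79 and Arid2 at -0.79. Of these 52 genes, 12 also passed with the replicate block on 12 arrays. The 18S control signal, lower with arsenite in each KO replicate, moved with the same comparison, and its part in these values was not tested.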

How the results depend on the processing

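The count of 107 genes (32 higher, 75 lower) did not hold under most alternatives. With all 12 arrays in 1 fit it was 7 (5 and 2) with no replicate block, and 12 (7 and 5) with the replicate block. WT responses then fell from 1675 genes to 441 and 1013, and KO responses from 4296 to 1566 without the block. The replicate block on the differences, which leaves 2 residual degrees of freedom, gave 153 genes, of which 59 were higher. The mean over probe sets gave 41 (16 and 25) and every probe set on its own 211 (47 and 164), with 2807 and 7802 responding probe sets in WT and KO cells. Leaving out dim genes gave 167, of which 128 were lower, over fewer genes tested. Trended robust variances gave 45 (4 and 41). Without moderation limma's fit gave 0 genes (2410 with unadjusted p under 0.05), 495 in WT and 2477 in KO cells. An adjusted p under 0.01 left 3 (1 and 2), 534 and 1933, and a difference of at least 1 left 49 (20 and 29), 253 and 437. With arrays grouped by the labels of the shorter table, limma gave 0 genes in each comparison (233 unadjusted for the difference of responses). Single genes are not given for that grouping, because its differences mix conditions. Leaving out a replicate or a single difference gave 0 to 364 genes, 0 to 67 higher and 0 to 297 lower, with 358 to 1776 in WT and 1291 to 3967 in KO cells. The counts of 0 came without replicate 1 (1712 unadjusted) and without the WT difference of replicate 2 (2210 unadjusted). Quantile normalisation again (89 genes), median centring (104) and dropping the probe sets with the suffix _s_at, _x_at or _a_at (113) stayed within 1.5 times. The totals of the replicate block on the differences (153) and of leaving out replicate 3 (98) did too. The 59 higher genes of that block did not. The causes of the other changes were not tested.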
